A study of Mus musculus with 23 samples.

Results

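Neutrophils sorted from the lung and from peripheral blood (PB) of wild-type (WT) mice were compared by bulk RNA sequencing, with 3 lung and 3 PB samples, 6 of the 23 samples of the series. The comparison was made over 7577 of the 21878 genes listed, those with a level of at least 1 FPKM, fragments counted on a gene scaled by its exon length and by the sequencing depth, in at least 3 of the 6 samples. The mice are labelled wild type, no treatment is named, and the labels give neither age nor sex. Lungs were perfused before the cells were taken. Cells of both tissues passed a negative-selection kit and were then sorted as CD45+CD11b+Ly6G+, so the proteins of these 3 genes were used to choose the cells. The study's methods describe an incubation of lung pieces with collagenase that blood did not pass, and leave it out of a functional assay so that the cells are not activated. Whether the lung cells sequenced went through it is not stated, and if they did, its effect cannot be told apart from that of the tissue in any difference below, the chemokine, NF-kB and immediate early genes included. The study counts the samples of each tissue as separate mice, though the labels do not tie a sample to a mouse. The question put to the comparison was whether neutrophils held in the lung carry another set of transcripts than those in the circulation.

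Neutrophils are short-lived phagocytes that leave the bone marrow with most of their granule proteins already made. In the lung many of them stay inside narrow capillaries or along vessel walls and form a marginated pool that exchanges with the blood. Stimulated neutrophils make new transcripts for chemokines, cytokines and regulators of the transcription factor NF-kB. NF-kB is held in the cytoplasm by inhibitor proteins of the IkB family, and it induces genes for those same inhibitors, which closes a feedback loop.

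Between 16502129 and 18591217 reads per sample were recovered from the FPKM values, and 6887 to 6899 genes reached 1 FPKM in a lung sample against 7452 to 7583 in a PB sample. Samples of a tissue lay close together. The Euclidean distance on log2(FPKM + 1) was 12.9 to 23.8 between samples of 1 tissue and 85.8 to 88.8 between a lung and a PB sample. PB sample 3 was the farthest of its group, 20.2 and 23.8 from the others, which were 12.9 apart. On the deposited FPKM the median gene was lower in lung by 0.54 on the log2 scale, so each sample was divided by its median-ratio factor, and FPKM below are these rescaled values unless called deposited. A few abundant transcripts held a large part of each sample. The 10 most abundant genes summed to between 19.8 and 23.4% of the deposited FPKM. Fth1, the heavy chain of the iron store ferritin, held 3.11 ± 0.0313% of the deposited FPKM in lung against 0.758 ± 0.0199% in PB (SD, n = 3 each, as for every ± below), and Cxcl2 held 2.63 ± 0.0537% against 0.185 ± 0.0512%.

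The genes that define a neutrophil were present in both tissues. The summed FPKM of 9 neutrophil markers was 55548 to 60536 in lung and 46658 to 60788 in PB, and of these only Cxcr2 passed the test described next. The 8 markers of immature neutrophils summed to 718 to 739 in lung and 428 to 613 in PB. Mki67, a gene of dividing cells, was called higher in lung (1.82 ± 0.198 against 0.042 ± 0.0016 FPKM). It passed the filter on low values through the lung samples alone, which sets its direction. Cebpe, a factor of granule formation, was called higher in PB (4.66 ± 0.618 against 12.3 ± 0.776 FPKM). The part of maturity in the results was not tested. Of the sort markers, Ly6g had 68.2 ± 1.57 against 80.9 ± 11.1 FPKM, Itgam (CD11b) had 464 ± 11.7 against 322 ± 18.4 FPKM and Ptprc (CD45) had 708 ± 5.71 against 524 ± 32 FPKM in lung against PB, none of them called. Without rescaling the differences of Itgam and Ptprc changed sign. Markers of other cells were low, with sums of 10.9 to 12.8 FPKM in lung and 4.83 to 8.92 in PB for 9 platelet genes, 2.71 to 2.9 and 2.24 to 2.57 for 8 endothelial genes, 0.857 to 0.969 and 0.147 to 0.25 for 6 fibroblast genes, 1.49 to 1.57 and 0 to 0.388 for 7 erythroid genes, and 0.0562 to 0.204 and 0.00763 to 0.132 for 6 B cell genes. The 8 lung epithelial genes summed lower in lung (6.72 to 8.19) than in PB (11.3 to 19.2), and Ager, a marker of alveolar type I cells, was called higher in PB (log2 fold change −1.56). The 12 monocyte and macrophage genes, of which neutrophils also express some, summed to 234 to 243 in lung and 202 to 244 in PB.

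Lung neutrophils differed from PB neutrophils in 1382 genes, and the larger changes were rises in lung. A differentially expressed gene (DEG) had an adjusted p below 0.05 by limma, Benjamini-Hochberg adjusted over the 7577 genes, and a change of more than 1 on the log2 scale in either direction. By this rule 932 genes (12.3% of those tested) rose in lung and 450 genes (5.94%) fell there, that is, were higher in PB. Without rescaling the split turned, with 587 risen in lung against 1476 risen in PB, so that 28.5% of the DEGs were higher in lung instead of 67.4%. With a pseudocount of 0.1 the counts were 1078 and 808, and by limma-voom on the recovered reads 1087 and 842. The choice of scale therefore sets the balance of the directions, and changes below are relative to the median gene. The median size of the change was 1.76 for genes higher in lung and 1.26 for genes higher in PB on the log2 scale. On the scale of the test, log2(FPKM + 1), which holds down the changes of low genes, rises over 2 numbered 370 and falls over 2 numbered 37, and rises over 4 numbered 58 while AI467606, at −3.90, was the largest fall. All 932 and all 450 DEGs had values that did not overlap between the tissues, as did 2711 (35.8%) and 2678 (35.3%) of all genes tested in the direction of lung and of PB. A gene that reached 1 FPKM in the samples of 1 tissue alone has its direction set by the filter on low values. Counts in the gene lists below are to be read beside the 12.3% of all genes tested that rose and the 5.94% that fell. In bulk samples, fewer cells of a type and less RNA per cell cannot be told apart.

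**Figure D1:**
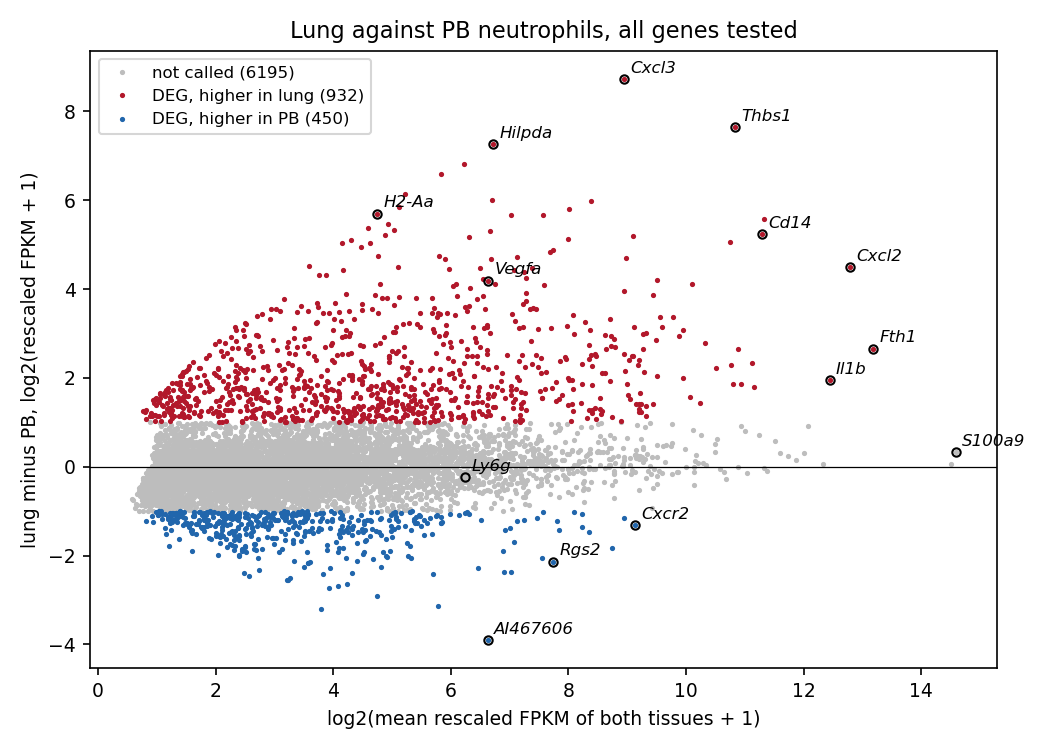
Each point is a gene, placed by its mean level in both tissues on the horizontal axis, log2(mean rescaled FPKM + 1), and by its lung minus PB difference on the vertical axis, log2(rescaled FPKM + 1), with 932 DEGs that rose in lung, 450 that fell and 6195 other genes in separate colours. The upper cloud reaches 8.73 while the lower cloud ends at −3.90.

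The largest rise in lung was that of Cxcl3 (NCBI gene 330122, chromosome 5 of GRCm38, 90786101 to 90788093), a chemokine that draws neutrophils through the receptor CXCR2. Cxcl3 had 1003, 971 and 983 FPKM in the lung samples and 2.34, 1.1 and 0.768 FPKM in the PB samples (log2 fold change 8.73, SE 0.20, adjusted p = 5.78e-09). Its PB values rest on 97 reads over the 3 samples, and PB sample 1 was the highest of them. Thbs1 (NCBI gene 21825, chromosome 2 of GRCm38, 118111876 to 118127133) encodes thrombospondin 1, a secreted glycoprotein known to hold back vessel growth. Thbs1 had 3572, 3651 and 3671 FPKM in the lung samples and 17.3, 19.5 and 14.7 FPKM in the PB samples (log2 fold change 7.65, SE 0.09, adjusted p = 2.39e-10). Hilpda (NCBI gene 69573, chromosome 6 of GRCm38, 29272488 to 29275449), a hypoxia-inducible protein of lipid droplets, had 218, 197 and 208 FPKM in the lung samples and 0.366, 0.235 and 0.471 FPKM in the PB samples (log2 fold change 7.27, SE 0.08, adjusted p = 1.98e-10). In each of these genes the lowest lung sample stood far above the highest PB sample.

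Other genes among the 12 largest rises were cytokine, cell cycle and transcription factor genes. Il1a, the interleukin 1 alpha gene, had 69.6, 73.8 and 75.2 FPKM in the lung samples and 0.0106, 0.0712 and 0.0511 FPKM in the PB samples (log2 fold change 6.14). Il23a, which encodes the p19 subunit of interleukin 23, had 66.9, 66 and 68.1 FPKM in the lung samples and 0.232, 0.159 and 0.16 FPKM in the PB samples (log2 fold change 5.84). Their PB values rest on 13 and 17 reads over the 3 samples. Cdkn1a, the cell cycle inhibitor p21, had 204 ± 4.81 against 2.2 ± 0.373 FPKM in lung against PB. Nr4a3, an orphan nuclear receptor of the immediate early class, had 112 ± 3.44 against 0.167 ± 0.0744 FPKM, and Ifrd1, a transcriptional coregulator, had 657 ± 7.99 against 9.42 ± 0.943 FPKM. Odc1, the first enzyme of polyamine synthesis, had 253 ± 5.95 against 3.98 ± 0.479 FPKM. The 12 were completed by Cxcl1, Nfkbie and H2-Aa, described with their gene groups.

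**Figure D2:**
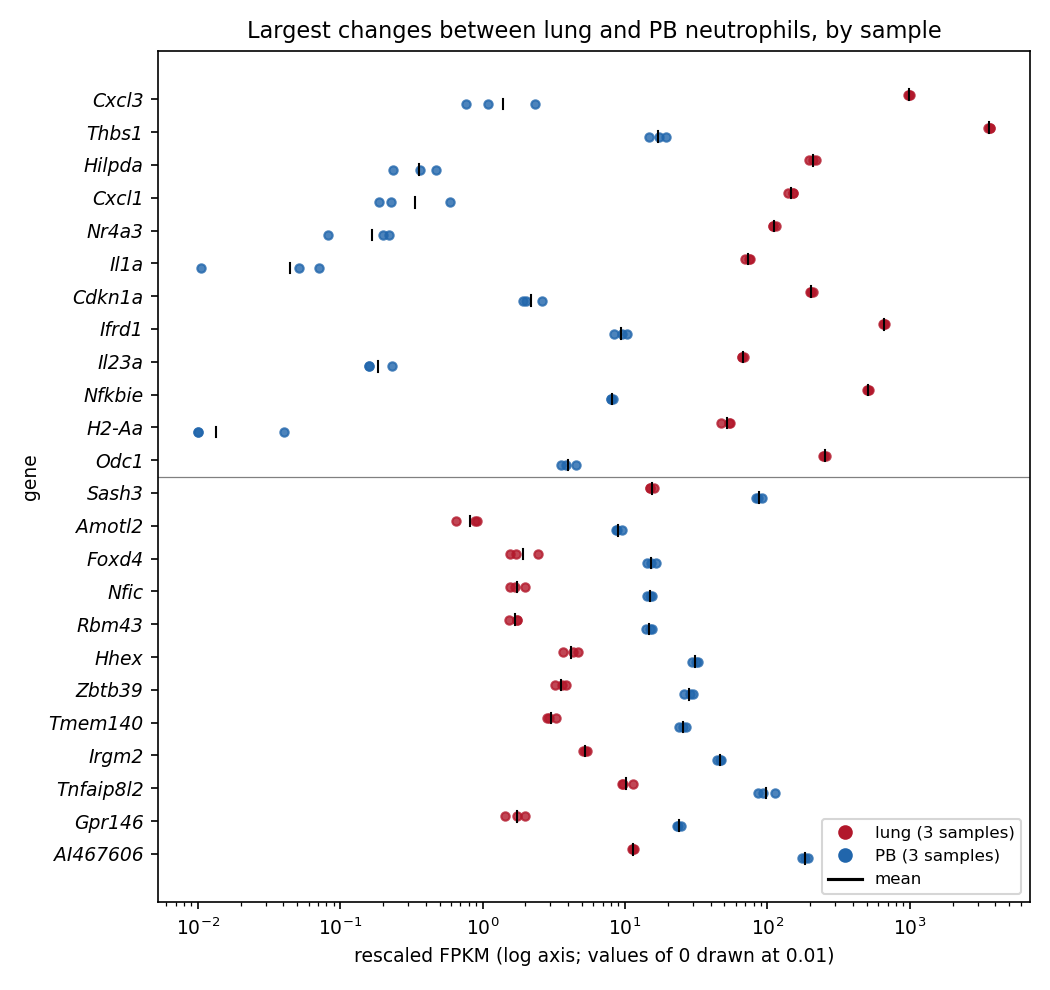
Rescaled FPKM on a log axis for the 12 genes with the largest rise and the 12 with the largest fall in lung, with 1 point per sample, lung and PB in separate colours, a line at each mean and values of 0 drawn at 0.01. The points of the tissues are apart in each gene, with means at least 62.6-fold apart in the 12 rises and 5.64- to 16.1-fold apart in the 12 falls.

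Most of the chemokine genes tested rose. Of the 17 CXC and CC chemokine genes listed, 10 passed the filter on low values and 7 were higher in lung, Cxcl3, Cxcl1, Ccl3, Cxcl2, Ccl4, Cxcl10 and Cxcl16, with a median log2 fold change of 2.76 over the 10 against −0.003 over all genes tested. Cxcl2, another CXCR2 ligand and the most abundant of them, had 13961, 13196 and 13742 FPKM in the lung samples and 666, 731 and 454 FPKM in the PB samples (log2 fold change 4.49, SE 0.16, adjusted p = 6.61e-08). Cxcl1, the third CXCR2 ligand, had 151, 152 and 139 FPKM in the lung samples and 0.189, 0.589 and 0.227 FPKM in the PB samples (log2 fold change 6.81, SE 0.11, adjusted p = 1.02e-09). The PB values of Cxcl1 rest on 22 reads over the 3 samples, and it passed the filter on low values through the lung samples alone. Ccl3, a CC chemokine, had 998, 938 and 963 FPKM in the lung samples and 40.1, 42.1 and 28.9 FPKM in the PB samples (log2 fold change 4.69, SE 0.13, adjusted p = 1.49e-08). Ccl4, another CC chemokine, had a log2 fold change of 3.02. Cxcl10, a ligand of CXCR3, had 2.51 and Cxcl16, a ligand of CXCR6, had 2.20. The annotated spans of Ccl3 and Ccl4 overlap. Ccl6, with 1211 ± 42.3 against 1138 ± 70.3 FPKM, was not called, nor were Ccl2 and Ccl9 (log2 fold changes 0.49 and 0.88). Cxcl1, Cxcl2 and Cxcl3 are similar genes, and how reads shared by such genes were counted is not given in the sources used here.

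The promoters of 4 chemokine genes, of Nfkbie and of Hilpda are shown as examples of windows that hold a motif of NF-kB or of the hypoxia-inducible factors. The windows run from 250 bases before to 50 bases after the start site in RefSeq (GRCm38.p6), 5′ to 3′ along the gene's strand, and they were picked after their matches had been seen. In the first 5, capitals mark matches to the NF-kB motif on either strand, overlapping matches included.

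Cxcl1 (chr5:90890995-90891294, plus strand): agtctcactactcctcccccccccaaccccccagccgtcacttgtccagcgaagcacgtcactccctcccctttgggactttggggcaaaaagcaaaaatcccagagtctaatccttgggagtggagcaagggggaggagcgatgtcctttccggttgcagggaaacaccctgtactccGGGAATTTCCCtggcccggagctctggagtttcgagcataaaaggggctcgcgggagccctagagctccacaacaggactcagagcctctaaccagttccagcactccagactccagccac
Cxcl2 (chr5:90903649-90903948, plus strand): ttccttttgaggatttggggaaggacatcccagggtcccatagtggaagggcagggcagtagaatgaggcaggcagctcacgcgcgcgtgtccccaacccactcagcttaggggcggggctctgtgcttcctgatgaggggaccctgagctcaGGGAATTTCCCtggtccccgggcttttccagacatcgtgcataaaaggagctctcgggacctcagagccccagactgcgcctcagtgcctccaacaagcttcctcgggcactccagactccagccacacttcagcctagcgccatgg
Cxcl3 (chr5:90785851-90786150, plus strand): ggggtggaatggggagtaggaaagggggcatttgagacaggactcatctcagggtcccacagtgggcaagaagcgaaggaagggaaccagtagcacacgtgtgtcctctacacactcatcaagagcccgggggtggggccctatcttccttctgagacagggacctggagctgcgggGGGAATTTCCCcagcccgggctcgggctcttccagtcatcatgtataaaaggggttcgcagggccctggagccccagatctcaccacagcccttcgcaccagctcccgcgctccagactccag
Cxcl10 (chr5:92348840-92349139, minus strand): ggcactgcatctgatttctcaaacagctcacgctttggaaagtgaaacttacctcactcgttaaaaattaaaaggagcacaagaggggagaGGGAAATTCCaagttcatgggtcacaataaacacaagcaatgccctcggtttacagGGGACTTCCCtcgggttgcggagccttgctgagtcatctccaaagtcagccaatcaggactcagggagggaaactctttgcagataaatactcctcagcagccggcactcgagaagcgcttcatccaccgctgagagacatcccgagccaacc
Nfkbie (chr17:45555450-45555749, plus strand): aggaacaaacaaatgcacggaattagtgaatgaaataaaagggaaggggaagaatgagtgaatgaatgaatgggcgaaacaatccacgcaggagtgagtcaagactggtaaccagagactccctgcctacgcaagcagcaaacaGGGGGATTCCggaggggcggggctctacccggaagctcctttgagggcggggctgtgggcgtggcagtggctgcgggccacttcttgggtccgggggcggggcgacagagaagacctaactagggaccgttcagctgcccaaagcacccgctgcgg

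RefSeq holds windows for 2 starts of Hilpda. In the one of the later start, shown here, capitals mark the letters ACGTG, the core of the hypoxia response element, which is also part of the E-box CACGTG.

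Hilpda (chr6:29272376-29272675, plus strand): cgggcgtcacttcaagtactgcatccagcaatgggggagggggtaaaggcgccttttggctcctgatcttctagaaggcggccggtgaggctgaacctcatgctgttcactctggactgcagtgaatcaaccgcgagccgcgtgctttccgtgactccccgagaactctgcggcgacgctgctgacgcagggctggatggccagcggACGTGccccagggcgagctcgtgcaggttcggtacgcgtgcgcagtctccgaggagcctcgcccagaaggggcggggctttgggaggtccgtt

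The match begins 71 bases before the start in Cxcl1, 97 in Cxcl2, 73 in Cxcl3 and 106 in Nfkbie, and Cxcl10 has matches that begin 159 and 103 bases before it. The ACGTG of Hilpda begins 43 bases before the later start, which lies inside the span given above, and the window of the earlier start (chr6:29272238-29272537) holds no ACGTG. Over 6185 genes with a promoter window, 5.19% held an NF-kB match, against 9.31% of 763 genes higher in lung and 3.92% of 383 genes higher in PB. Each gene entered these shares and those below with a single window, which for Hilpda was that of the earlier start. The AP-1 motif TGANTCA was held by 4.75%, 7.86% and 3.92% of the same groups, the letters ACGTG by 27.3%, 32.6% and 21.1%, the cyclic AMP response element TGACGTCA by 3.64%, 6.82% and 2.87%, and the C/EBP motif TTGCNNAA by 8.52%, 8.91% and 10.2%, all searched on both strands. The windows of Ccl3, Icam1, Tnf, Il1b, Ifrd1, Odc1 and Cdkn1a held none of these 5 motifs, which says only that the letters are not in these windows.

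Most of the NF-kB subunit and feedback genes tested rose in lung. In this list 16 of 20 genes tested rose in lung and 1 fell (16 rose and 1 fell without rescaling), and the median log2 fold change was 3.01. The gene of an inhibitor led it. Nfkbie (IkB epsilon) had 498, 507 and 514 FPKM in the lung samples and 8.04, 8.19 and 8.03 FPKM in the PB samples (log2 fold change 5.8, SE 0.05, adjusted p = 1.65e-10). Tnfaip3 (A20), the enzyme that edits ubiquitin chains to end NF-kB signalling, had 925 ± 19.5 against 58.6 ± 7.87 FPKM and Traf1, an adaptor of tumour necrosis factor receptors, had 37.5 ± 0.106 against 0.119 ± 0.0252 FPKM. Traf1 passed the filter on low values through the lung samples alone. The subunit gene Nfkb2 had 289 ± 7.71 against 20.9 ± 1.77 FPKM, and Nfkbia (IkB alpha), the most abundant member, had 3083 ± 33.7 against 855 ± 125 FPKM. The subunit genes Rel, Relb and Rela were also higher in lung, while Otud1, a deubiquitinase, was the member higher in PB (log2 fold change −1.57).

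Secreted cytokines rose in part. In this list 10 of 16 genes tested rose in lung (8 rose and 2 fell without rescaling), and the median log2 fold change was 1.69. Il1a, Il23a and Csf3 were among members that passed the filter on low values through the lung samples alone, which sets their direction. Il1b, interleukin 1 beta, was already abundant in blood and had 8947, 8830 and 8827 FPKM in the lung samples and 2349, 2331 and 2177 FPKM in the PB samples (log2 fold change 1.96, SE 0.06, adjusted p = 2.24e-08). Tnf had 167 ± 1.3 against 26.5 ± 5.34 FPKM and Osm, oncostatin M, had 879 ± 11.4 against 167 ± 17.2 FPKM. Csf3, the gene for granulocyte colony stimulating factor, had 22.2, 22.1 and 21.7 FPKM in the lung samples and 0 reads in each PB sample, which makes it at least 1373-fold higher in lung when the PB group is set to a floor of 3 reads over the group, a limit that covers counting error only. Il1rn, the natural antagonist of the interleukin 1 receptor, had 773 ± 14.6 against 106 ± 17.1 FPKM, and Lif, Il18 and Csf1 were higher in lung as well. Il6 lay below the filter, with 6, 5 and 7 reads in the lung samples and 0 in the PB samples.

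Angiogenic factors made a smaller group with large members. In this list 6 of 11 genes tested rose in lung (6 rose and 2 fell without rescaling), and the median log2 fold change was 1.40. Vegfa, the main growth factor of vessels, had 185, 192 and 188 FPKM in the lung samples and 10.4, 10.8 and 7.29 FPKM in the PB samples (log2 fold change 4.19, SE 0.12, adjusted p = 2.32e-08). Sema4d, a semaphorin, had 252 ± 5.64 against 52.3 ± 0.839 FPKM. Areg, the epidermal growth factor receptor ligand amphiregulin, had 56, 66 and 82 reads in the lung samples and 0 in the PB samples, at least 115-fold higher in lung by the same floor. Areg thus passed the filter on low values through the lung samples alone. Edn1, the vasoconstrictor endothelin 1, and Hbegf, another ligand of that receptor, were the other members higher in lung beside Thbs1, which restrains vessel growth. The medians of this list and of the cytokines are the same with Areg and Csf3 set to their bounds.

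Immediate early genes, which cells switch on within minutes of a stimulus, did not move as 1 group. In this list 11 of 23 genes tested rose in lung and 3 fell (7 rose and 4 fell without rescaling), and the median log2 fold change was 0.92. The nuclear receptors Nr4a3, Nr4a1 and Nr4a2 and the AP-1 members Fosl1, Fosb and Fosl2 were higher in lung, Nr4a1 with 562 ± 2.67 against 57.8 ± 7.01 FPKM and Fosl1 with 58.8 ± 2.56 against 0.377 ± 0.253 FPKM. Nr4a3 and Fosl1 passed the filter on low values through the lung samples alone. Fos, the founding AP-1 gene, had 1511 ± 10.2 against 1565 ± 67.8 FPKM and a log2 fold change of −0.05. Dusp1 (0.91) and Junb (0.70) were not called either. Jun (83.1 ± 3.63 against 195 ± 20.3 FPKM), Klf6 (log2 fold change −1.02) and Klf2 (188 ± 4.22 against 669 ± 20.2 FPKM), the last a factor known to keep leukocytes quiescent, were higher in PB. Of the MAP kinase phosphatases, which remove the activating phosphates of these kinases, 6 of 9 genes tested rose in lung and 1 fell (6 rose and 2 fell without rescaling), and the median log2 fold change was 1.53. Dusp14, among those that rose, had 0 reads in each PB sample. It passed the filter on low values through the lung samples alone, which sets its direction. Dusp2 had 413 ± 14.2 against 13.1 ± 1.72 FPKM, Dusp5 had 309.6 ± 3.9 against 25.1 ± 2.82 FPKM and Dusp7, higher in PB, had 1.23 ± 0.243 against 10.1 ± 0.282 FPKM.

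The transcription factors of the granulocyte lineage split. In this list 6 of 17 genes tested rose in lung and 6 fell (4 rose and 8 fell without rescaling), and the median log2 fold change was −0.01. Cebpb, the C/EBP factor of emergency granulopoiesis, rose to 3708 ± 51.7 against 734 ± 78.2 FPKM, and Bhlhe40, a repressor linked to hypoxia and to the clock, to 127 ± 2.29 against 6.36 ± 0.372 FPKM. The other C/EBP genes lay the opposite way. Cebpd had 41.6 ± 2.32 against 218 ± 12.3 FPKM and Cebpa had 3.37 ± 1.03 against 18.4 ± 0.943 FPKM, both higher in PB, as were Cebpe and Cebpg. Hif1a, Runx3, Nfil3 and Irf5 were higher in lung and Klf5 in PB, and Nfil3 lost its call without rescaling.

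**Figure D3:**
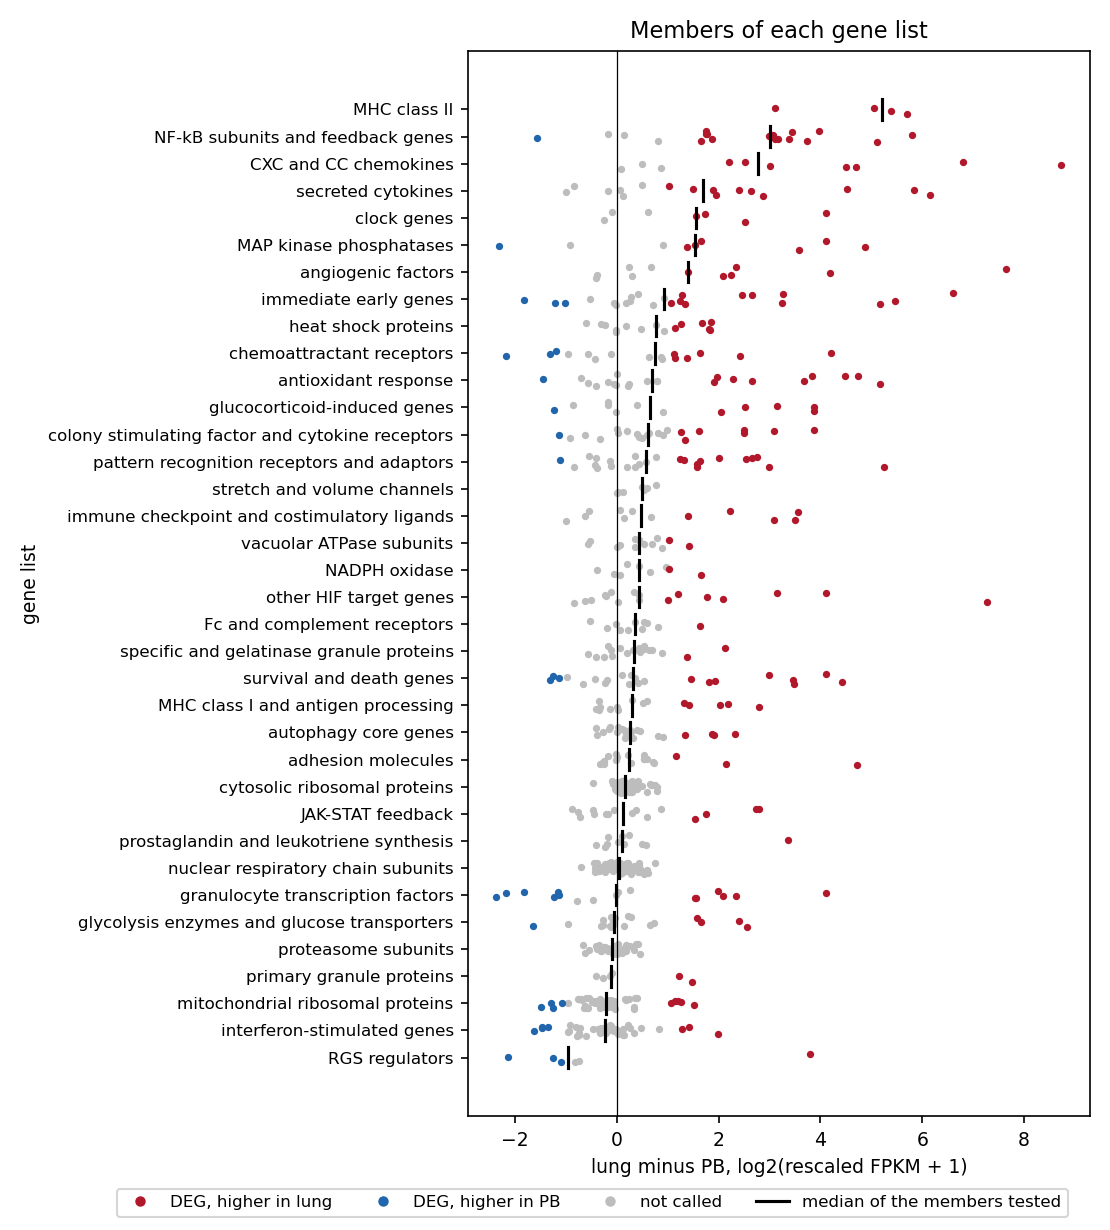
Each point is a gene of 1 of the 36 lists, placed by its lung minus PB difference on log2(rescaled FPKM + 1) and coloured by whether it was a DEG, with a line at the median of the members tested. The medians of the NF-kB (3.01) and chemokine genes (2.76) lie high and that of the RGS regulators lowest (−0.96), while that of MHC class II (5.22) rests on 4 members, 3 of which passed the filter on low values through the lung samples alone.

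Genes of glucose use and of the response to low oxygen changed in a few members. In the list of glycolytic enzymes and glucose transporters, 4 of 20 genes tested rose in lung and 1 fell (3 rose and 2 fell without rescaling), and the median log2 fold change was −0.05. The shares were 20% and 5%, against 12.3% and 5.94% of all genes tested. Pfkfb3, which makes the activator of phosphofructokinase, had 91 ± 3.2 against 14.7 ± 1.37 FPKM, the lactate exporter Slc16a3 had 986 ± 7.46 against 186 ± 10.5 FPKM and the glucose transporter Slc2a1 had 232 ± 2.01 against 73.4 ± 7.57 FPKM. Hk2, a hexokinase at the entry to glycolysis, was the member higher in PB with 3.85 ± 0.341 against 14.1 ± 1.52 FPKM. Of other targets of the hypoxia-inducible factors, 7 of 17 genes tested rose in lung (5 rose and 3 fell without rescaling), and the median log2 fold change was 0.43. Beside Hilpda these were Bhlhe40, Ddit4, Hif1a, Ero1l, Plin2 and Higd1a, with 59.6 ± 1.54 against 5.89 ± 0.841 FPKM for Ddit4, an inhibitor of the growth kinase mTORC1. Hif1a, counted in this list, encodes a subunit of the factors themselves. Hilpda passed the filter on low values through the lung samples alone.

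Antioxidant genes rose in part. In this list 9 of 22 genes tested rose in lung and 1 fell (9 rose and 3 fell without rescaling), and the median log2 fold change was 0.69. Fth1 had 16433, 15859 and 15987 FPKM in the lung samples and 2481, 2399 and 2768 FPKM in the PB samples (log2 fold change 2.66). Sod2, the mitochondrial superoxide dismutase, had 107 ± 1.16 against 3.05 ± 0.155 FPKM, Txnrd1, thioredoxin reductase, had 318 ± 5.77 against 13.3 ± 0.281 FPKM, and Slc7a11, the cystine importer, had 174 ± 4.19 against 11.3 ± 0.247 FPKM. Nfe2l2 (NRF2), the factor that drives many of these genes, was higher in lung and its inhibitor Keap1 higher in PB (log2 fold changes 2.27 and −1.45). Among heat shock proteins 6 of 15 genes tested rose in lung (4 rose and 1 fell without rescaling), and the median log2 fold change was 0.77. Hspa5, the chaperone of the endoplasmic reticulum, had 525 ± 5.52 against 147 ± 3.26 FPKM and Hsp90aa1 had 46.4 ± 0.846 against 18.9 ± 0.767 FPKM.

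Receptors for chemoattractants moved in both directions. In this list 6 of 16 genes tested rose in lung and 3 fell (2 rose and 6 fell without rescaling), and the median log2 fold change was 0.75. Cxcr2, the receptor for Cxcl1, Cxcl2 and Cxcl3, had 320.2, 326 and 321 FPKM in the lung samples and 784, 767 and 853 FPKM in the PB samples (log2 fold change −1.31, SE 0.06, adjusted p = 2.31e-07). S1pr4, a receptor for sphingosine 1-phosphate, had 3.34 ± 0.537 against 18.5 ± 2.27 FPKM. Ccrl2, which binds chemerin without signalling, had 1385 ± 22.5 against 74.1 ± 3.19 FPKM and Ptafr, the receptor for platelet activating factor, had 552 ± 6.2 against 103 ± 0.509 FPKM, both higher in lung. C5ar1 (log2 fold change 1.62) and Fpr1 (1.38), receptors for the complement fragment C5a and for formylated peptides, were called here and lost their calls without rescaling. Cxcr4, the receptor that holds neutrophils in the marrow, had 735 ± 5.29 against 475 ± 13.3 FPKM and was not called (log2 fold change 0.63).

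Sensors of microbes rose more often than they fell. In the list of pattern recognition receptors and adaptors 11 of 25 genes tested rose in lung and 1 fell (8 rose and 4 fell without rescaling), and the median log2 fold change was 0.58. Cd14, the coreceptor for lipopolysaccharide, had 4951, 4838 and 4826 FPKM in the lung samples and 136, 129 and 119 FPKM in the PB samples (log2 fold change 5.24, SE 0.06, adjusted p = 2.39e-10). Clec4e (Mincle) had 1091 ± 11.2 against 137 ± 12.2 FPKM, Tlr2 had 568 ± 7.1 against 83.6 ± 3.48 FPKM and Trem1, an amplifier of these signals, had 1069 ± 8.89 against 169 ± 2.95 FPKM. Nlrp3, the sensor of an inflammasome, was higher in lung and the adaptor Ticam1 higher in PB (log2 fold changes 2.53 and −1.12).

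Adhesion, granule and oxidase genes gave a few calls each, to be read beside the 12.3% of all genes tested that rose. The share that rose was 15% of the adhesion genes, 10.5% of the specific and gelatinase granule genes, 22.2% of the oxidase genes and 33.3% of the primary granule genes, the last over 6 genes. Of adhesion molecules 3 of 20 genes tested rose in lung (2 rose without rescaling), and the median log2 fold change was 0.24. Icam1, the ligand of the beta 2 integrins, had 267 ± 6.32 against 9.24 ± 0.495 FPKM, and Cd9 and Itga5 were the other members higher in lung, Itga5 not without rescaling. Of the specific and gelatinase granule proteins 2 of 19 genes tested rose in lung (1 rose and 2 fell without rescaling), and the median log2 fold change was 0.34. These were Adam8 and Fpr1. Of the primary granule proteins 2 of 6 genes tested rose in lung (1 rose without rescaling), and the median log2 fold change was −0.11. These were Ctsc and Cd63, Cd63 not without rescaling. Mmp9 (gelatinase B) had 972 ± 14.1 against 1289 ± 119 FPKM and S100a9, a calcium-binding protein of the neutrophil cytosol, had 27359 ± 1065 against 22040 ± 3503 FPKM, neither called. The difference of S100a9 changed sign without rescaling. Of the NADPH oxidase genes 2 of 9 genes tested rose in lung (1 rose and 1 fell without rescaling), and the median log2 fold change was 0.43. These were Ncf1 and Ncf4, the latter not without rescaling. Of the 11 Fc and complement receptor genes tested, C5ar1 was the call, a share of 9.09%. Csf3r, the receptor for granulocyte colony stimulating factor, had 1877 ± 23 against 1888 ± 249.7 FPKM and a log2 fold change of 0.00.

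Receptors for cytokines and the feedback genes of their signalling changed in part. In the list of colony stimulating factor and cytokine receptors 7 of 22 genes tested rose in lung and 1 fell (4 rose and 3 fell without rescaling), and the median log2 fold change was 0.61. Il1r2, a decoy that binds interleukin 1 without signalling, had 1317, 1281 and 1313 FPKM in the lung samples and 90.4, 91.4 and 84.1 FPKM in the PB samples (log2 fold change 3.86). Il10ra had 318 ± 2.98 against 36.4 ± 1.88 FPKM, and Il17ra was the member higher in PB (log2 fold change −1.15). Of the JAK-STAT feedback genes 4 of 16 genes tested rose in lung (3 rose and 4 fell without rescaling), and the median log2 fold change was 0.12. These were Pim1, Pim3, Cish and Jak2, the last of which lost its call without rescaling. Pim1 had 2242 ± 44.5 against 325 ± 26.4 FPKM.

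Genes of survival and death, of checkpoints and of prostaglandin synthesis included single large rises. In the survival and death list 8 of 22 genes tested rose in lung and 3 fell (7 rose and 5 fell without rescaling), and the median log2 fold change was 0.32. The closely related antiapoptotic genes Bcl2a1b, Bcl2a1d and Bcl2a1a had log2 fold changes of 4.43, 4.11 and 3.47, and reads of near-identical copies cannot be assigned with certainty. The proapoptotic genes Bbc3 (PUMA), Bid and Casp9 were higher in PB (log2 fold changes −1.32, −1.26 and −1.15), whereas the proapoptotic Bcl2l11 (BIM) and Fas were higher in lung (3.46 and 1.47). Of the checkpoint and costimulatory ligands 5 of 12 genes tested rose in lung (4 rose and 3 fell without rescaling), and the median log2 fold change was 0.48. Cd274, which encodes PD-L1, the ligand that restrains T cells through PD-1, had 289, 300.1 and 308 FPKM in the lung samples and 25.4, 25.9 and 22.2 FPKM in the PB samples (log2 fold change 3.56, SE 0.07, adjusted p = 2.26e-09). Cd80, a ligand of CD28 and CTLA-4, had 141 ± 3.45 against 11.6 ± 1.7 FPKM. Ptgs2 (COX-2), the inducible enzyme of prostaglandin synthesis, had 1374 ± 11.1 against 133 ± 16.8 FPKM and was the call among the 11 prostaglandin and leukotriene genes tested. That share, 9.09%, was below the 12.3% of all genes tested that rose.

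MHC class II genes, which present antigen and are typical of dendritic cells, B cells and macrophages, were higher in lung. Of 9 members 4 passed the filter on low values, which they did through the lung samples in 3 cases, and all 4 were called. H2-Aa had 53.8, 47 and 54.6 FPKM in the lung samples and 0, 0.0404 and 0 FPKM in the PB samples, its PB values resting on 1 read, so its fitted log2 fold change of 5.70 depends on the pseudocount. H2-Ab1 had 33.3 ± 1.4 against 0.0373 ± 0.0378 FPKM, H2-Eb1 had 45.9 ± 2.92 against 0.123 ± 0.0169 FPKM and Cd74, the invariant chain, had 87.2, 93.2 and 96 FPKM in the lung samples and 8.5, 8.68 and 12.9 FPKM in the PB samples. Ciita, the master regulator of these genes, had 0.0131 ± 0.00548 against 0.002 ± 0.00346 FPKM and H2-DMa, which loads peptide on class II, had 0.202 ± 0.0745 against 0.123 ± 0.0133 FPKM, both below the filter. Genes of other cells were seen beside them at low levels, C1qa (macrophages) with 0.793 ± 0.154 against 0.0139 ± 0.024 FPKM, Sftpc (alveolar type II cells) with 1.01 ± 0.26 FPKM in lung and 0 reads in PB, Cdh5 (endothelium) with 0.177 ± 0.0443 FPKM in lung and 0 reads in PB, and Flt3 (dendritic cells) with 0.0915 ± 0.0399 against 0.0371 ± 0.0259 FPKM. Cd79a (B cells) had 0 reads in lung and 0.0327 ± 0.0567 FPKM in PB. As whole lists, the 7 dendritic cell genes summed to 0.432 to 0.795 FPKM in lung and 0.381 to 0.841 in PB, with Xcr1 and Siglech at 0 in every sample, and the epithelial, B cell and macrophage sums are given above. The part of such cells in the class II values was not tested. Among MHC class I and antigen processing genes 5 of 15 genes tested rose in lung (3 rose and 1 fell without rescaling), and the median log2 fold change was 0.30. H2-Q6, H2-Q7 and H2-Q4, closely related copies, were first among them, and H2-K1 lost its call without rescaling.

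Interferon-stimulated genes gave calls in both directions. In this list 3 of 40 genes tested rose in lung and 4 fell (1 rose and 14 fell without rescaling), and the median log2 fold change was −0.23. Cmpk2 had 13.4 ± 0.146 against 44 ± 4.86 FPKM, Usp18 had 9.72 ± 0.95 against 26.2 ± 0.361 FPKM and Ifit3b had 11 ± 1.1 against 32.3 ± 1.81 FPKM, all higher in PB. Isg15 had 407 ± 24.6 against 102 ± 3.92 FPKM and Isg20 had 120.4 ± 6.52 against 44.2 ± 1.27 FPKM, both higher in lung. The RGS regulators, which shorten signals from G protein-coupled receptors, also split. In this list 1 of 6 genes tested rose in lung and 3 fell (1 rose and 5 fell without rescaling), and the median log2 fold change was −0.96. Rgs1 had 55.2 ± 1.31 against 3.11 ± 0.858 FPKM and Rgs2 had 78.2 ± 3.21 against 347 ± 8.03 FPKM. Rgs19 and Rgs3 were higher in PB.

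Clock and steroid-response genes were changed in part. Of the 19 clock genes listed 12 lay below the filter on low values, Arntl and Clock among them. In the rest 4 of 7 genes tested rose in lung (3 rose without rescaling), and the median log2 fold change was 1.56. These were Bhlhe40, Per1, Ciart and Nfil3, of which Bhlhe40 and Nfil3 are also counted among the granulocyte factors. Per2, Cry1 and Cry2 were not called (log2 fold changes 0.62, −0.09 and −0.26). Of the genes that glucocorticoids induce, 5 of 12 genes tested rose in lung and 1 fell (5 rose and 2 fell without rescaling), and the median log2 fold change was 0.65. The metallothioneins Mt1 and Mt2 had 33.8 ± 5.17 against 1.37 ± 0.454 FPKM and 3.38 ± 1.35 against 0.0259 ± 0.0449 FPKM, and Tsc22d3 (GILZ), a common readout of the glucocorticoid receptor, had 133 ± 1.79 against 313 ± 22.3 FPKM, higher in PB. Mt2 passed the filter on low values through the lung samples alone.

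Ribosomal, respiratory chain and proteasome genes gave no DEG on rescaled values. Of the 80 cytosolic ribosomal protein genes tested, 74 nuclear respiratory chain genes and 37 proteasome genes, 0 were DEGs by limma on rescaled FPKM and 0 by limma-voom on the recovered reads. Without rescaling 0 rose in each list and 1, 4 and 4 fell. Of 78, 74 and 37 tested in the WT samples of the Piezo1 experiment (described below), 1, 4 and 0 rose and 0, 1 and 0 fell. At an unadjusted p below 0.05 here, with no limit on the size, 26, 28 and 19 passed. Of those passing, 25, 18 and 6 were higher in lung and 1, 10 and 13 in PB. The median log2 fold changes of the lists were 0.16, 0.03 and −0.10. By limma on rescaled FPKM, calls of other genes of general machinery were few, to be read beside the 12.3% of all genes tested that rose and the 5.94% that fell. Of mitochondrial ribosomal protein genes 5 of 54 genes tested rose in lung and 4 fell (1 rose and 14 fell without rescaling), and the median log2 fold change was −0.21. More of them leaned to PB, with 8 higher in lung and 25 in PB at an unadjusted p below 0.05. By limma-voom 5 rose and 11 fell. In the WT samples of the Piezo1 experiment, described below, 3 of 52 rose and 11 fell, against 13.2% and 8.86% of all genes tested there. Of vacuolar ATPase subunits 2 of 14 genes tested rose in lung (0 rose and 2 fell without rescaling), and the median log2 fold change was 0.44. Of the autophagy genes 4 of 23 genes tested rose in lung (3 rose and 1 fell without rescaling), and the median log2 fold change was 0.26.

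Ion channels that open on stretch or swelling gave no call. Of 16 such genes 7 passed the filter, 0 were DEGs by limma and 0 by limma-voom. By limma 4 had an unadjusted p below 0.05, all 4 higher in lung, and the median log2 fold change was 0.49. Since 12.3% of all genes tested rose and 5.94% fell, 0 calls among 7 genes do not show that these channels were unchanged. Piezo1, the stretch-gated cation channel, lay below the filter with 0.364 ± 0.106 against 0.268 ± 0.0587 FPKM, from 138 lung and 171 PB reads. On the deposited FPKM its lung mean was the lower, so the order of the tissues depends on the scale. Trpv4, another mechanosensitive channel, had 0.136 ± 0.0995 against 0.204 ± 0.0436 FPKM.

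On log2(FPKM + 1), which holds down the changes of low genes, the largest falls in lung were smaller than the largest rises. Ttc30b, for example, had 0.0468 ± 0.0153 against 2.59 ± 0.0937 FPKM in lung against PB and a log2 fold change of −1.78. It passed the filter on low values through the PB samples alone, which sets its direction. AI467606 (NCBI gene 101602, chromosome 7 of GRCm38, 127090780 to 127094049), a gene without an assigned function, had 11.3, 11.6 and 11.4 FPKM in the lung samples and 185, 176 and 192 FPKM in the PB samples (log2 fold change −3.90, SE 0.05, adjusted p = 3.56e-10). Gpr146, an orphan receptor, had 1.76, 2 and 1.45 FPKM in the lung samples and 23.4, 23.7 and 24.7 FPKM in the PB samples (log2 fold change −3.19). Tnfaip8l2 (TIPE2), an inhibitor of innate immune signalling, had 9.58, 9.73 and 11.4 FPKM in the lung samples and 93.8, 86.6 and 113 FPKM in the PB samples (−3.13). In each gene every PB sample was at least 7-fold above every lung sample. The transcription factor genes Zbtb39, Hhex, Nfic and Foxd4 fell by 2.68, 2.64, 2.55 and 2.50 on the log2 scale. Irgm2, an immunity-related GTPase with close relatives, had 5.25 ± 0.173 against 46.2 ± 1.34 FPKM. Gpr146, Tnfaip8l2 and Tmem140 overlap the annotated genes 3110082I17Rik, Lysmd1 and Cyren, and whether counting used strand is not given in the sources used here. Tmem140, Rbm43, Amotl2, a junction protein, and Sash3, an adaptor of leukocytes, had PB levels 8.48, 8.78, 11 and 5.64 times those of lung.

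The share of genes higher in PB went down as genes had more exons. Over 7321 protein-coding genes, grouped by the annotated transcript with most exons, 28.8% of 125 single-exon genes were DEGs higher in PB. The share was 19.7% at 2 exons, 12.4% at 3, 9.43% at 4 to 5, 5.4% at 6 to 10, 3.03% at 11 to 20 and 0.63% of 953 genes with more than 20. The shares of genes higher in lung were 7.2, 18.5, 13.8, 13.6, 14, 11 and 8.6% in the same order. The median log2 fold change went from −0.34 in single-exon genes to 0.17 in genes with more than 20 exons. Some single-exon genes, such as Ttc30b, Ttc30a1 and Exoc8, passed the filter on low values through the PB samples alone. Pnma1 did so through the lung samples alone. The filter sets the direction of such genes. Among genes whose higher group had a mean deposited FPKM of at least 5, 31% of single-exon genes were higher in PB. At more than 20 exons it was 0.901%. Among single-exon genes higher in PB were Foxd4, Frat1, Frat2, S1pr4, Cebpd, Jun and Rhob, a small GTPase with 37.5 ± 1.67 against 199 ± 1.31 FPKM in lung against PB. Single-exon genes higher in lung included Cebpb and Hcar2, a receptor for hydroxybutyrate and niacin, with 930.4 ± 5.59 against 164 ± 20.5 FPKM. Under the other settings tried, the share of single-exon genes higher in PB ranged from 27.2 to 40.8% and that of genes with more than 20 exons from 0.63 to 8.5%, the last without rescaling. In 5 equal classes of exon GC content, from the lowest to the highest, the share of genes higher in PB went from 4.1 to 9.02%, and the part of GC content in the exon classes was not tested. The grouping by exons and the single-exon genes named were chosen after their values were seen.

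**Figure D4:**
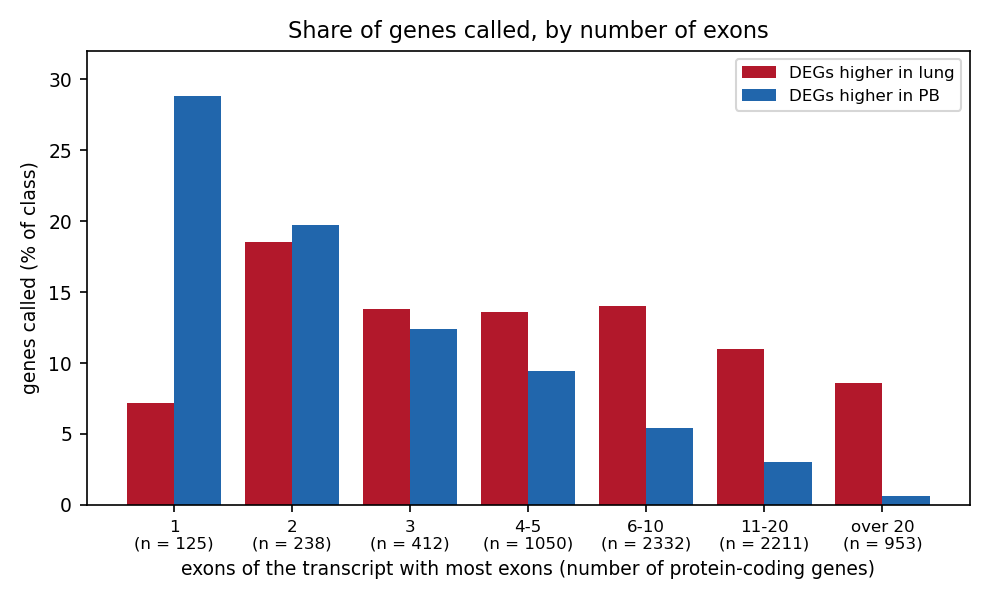
Percent of protein-coding genes that rose (higher in lung) or fell (higher in PB) in 7 classes by number of exons, with the number of genes under each class. The PB bars step down from 28.8 to 0.63%, while the lung bars stay between 7.2 and 18.5%.

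The same tissues were sampled again as the WT arm of the Piezo1 experiment of this series, with 2 lung and 2 PB samples that are not among the 6. The labels call both groups wild type and do not say which alleles that experiment's mice carried. Those samples stand in separate deposited tables for lung and PB, with FPKM computed per sample and rescaled as above. Of 7143 genes tested there, 940 (13.2%) were DEGs with the higher level in lung and 633 (8.86%) with the higher level in PB. Of the 932 DEGs higher in lung 869 were tested there, 864 with the same sign, and 724 were called the same way, which is 83.3% of the 869 and 80.8% of the 896 calls of that experiment tested in both. Of the 450 DEGs higher in PB 419 were tested there, 412 with the same sign, and 273 were called, 65.2% of the 419 and 49.1% of 556. No DEG was called the opposite way. Across all 6719 genes tested in both, 80.0% had the same sign and Pearson's r was 0.90, a description across genes, which are not independent replicates and share the base composition and length of each gene. The samples share no library with the 6, but whether they came from other mice is not given in the sources used here.

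Single genes differed in size between the experiments, and these differences were not tested. Cxcl3, Thbs1, Hilpda and Nfkbie had log2 fold changes of 7.85, 7.54, 8.70 and 5.65 in the Piezo1 experiment, against 8.73, 7.65, 7.27 and 5.8 here. Cxcl2, Il1b, Vegfa and Cd274 had 4.63, 2.06, 4.74 and 3.58. Nr4a3 had 3.59 against 6.59. AI467606, Gpr146 and Tnfaip8l2 had −3.90, −3.48 and −2.93. Foxd4 had −0.47 there and was not called, and Cxcr4, with 1.16, was.

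**Figure D5:**
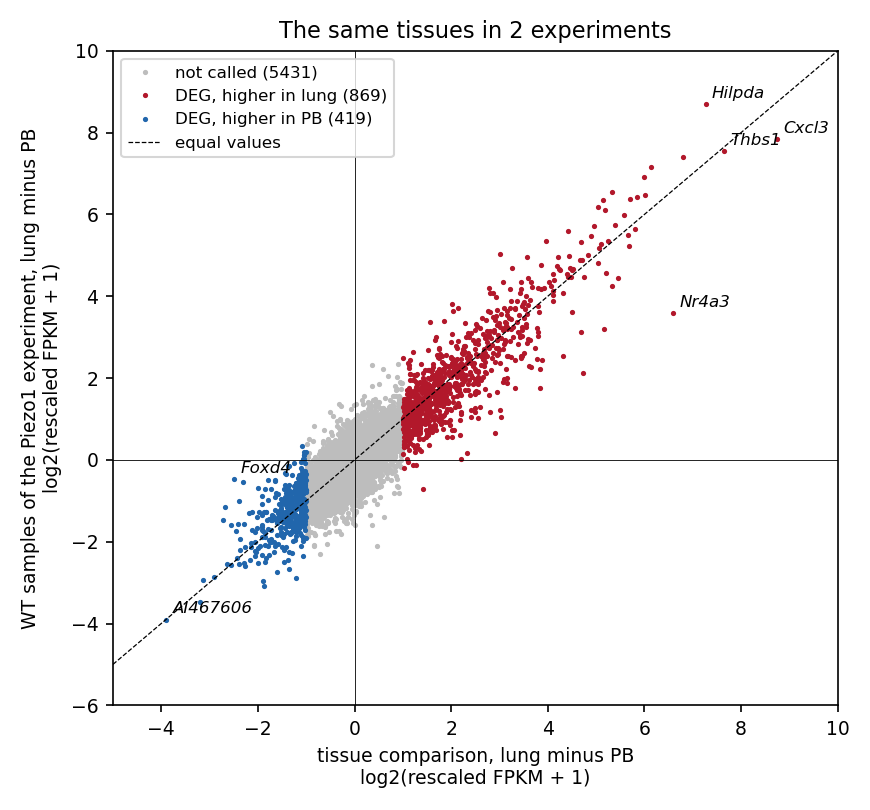
Each point is 1 of the 6719 genes tested in both experiments, with its lung minus PB difference in the tissue comparison on the horizontal axis and in the WT samples of the Piezo1 experiment on the vertical axis, both on log2(rescaled FPKM + 1), coloured by the call of the tissue comparison and with a dashed line of equal values. Of the DEGs higher in lung 864 lie above 0 on the vertical axis, and of those higher in PB 412 lie below it.

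Some transcripts were read in the lung samples alone. With at least 10 reads in every sample of 1 tissue and 0 in every sample of the other, 26 genes were found in lung and 0 in PB, and 10 of the 26 met the same rule in the Piezo1 experiment. These 10 were Areg, Cav2, Dusp14, Fndc4, Hsd11b2, Il10, Itih1, Met, Serpinb2 and Ypel4. Others went the opposite way there. Plagl1, with 131, 133 and 130 reads in the lung samples here, had 6 lung and 11 PB reads in that experiment. Chrm1, Pcgf2, Arhgef37, Gls2 and Adgrf5 also had more PB than lung reads there, at 8 reads or fewer. Ms4a4c had 0 in both tissues, and the rest had more reads in lung. Csf3 had the most reads of the 26, 839, 832 and 781 in the lung samples. Serpinb2, an inhibitor of plasminogen activators, had 136, 116 and 98 reads, Il10, an anti-inflammatory cytokine, 39, 25 and 20, and Met, the receptor for hepatocyte growth factor, 41, 27 and 29. Genes of other tissues were among the 26 at few reads, the endothelial Adgrf5, Ramp3 and Cav2 and the platelet gene Ppbp with 10 to 42 reads a sample, and their part in the list was not tested.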

How the data were processed

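Neutrophils from the lung and PB of WT mice were profiled by bulk poly(A) RNA sequencing, 3 samples a tissue, grouped by the labels. Per the study's methods and the labels, 150-base paired reads were trimmed with fastp, aligned to mm10 with HISAT2 and counted with HTSeq, versions not given in the sources used here. The labels and the methods name different library kits. The authors deposited FPKM per gene and sample, together with columns of their own DESeq2 comparisons (base mean, fold change, p and q), which were not used. A table of whole lung was not used. 27 symbols deposited as dates were restored by NCBI gene ID.

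Each sample was divided by its median-ratio factor over the genes tested, and log2(FPKM + 1) was fitted with limma 3.58.1 (limma-trend, R 4.3.3) over genes reaching 1 FPKM in 3 or more samples (2 or more in the Piezo1 experiment). Fold changes are on this scale, which understates those of low genes. DEGs passed an adjusted p (Benjamini-Hochberg) of 0.05 and changed by over 1 on the log2 scale either way. FPKM steps gave whole reads (within 0.01 reads) for 17946 of 17946 genes expressed, and these reads give the depth, the floor of 3 reads over a group and the limma-voom alternative. The script was tested on simulated data. Tables were handled in Python 3.11.15 with pandas 2.3.3 and numpy 2.4.6.

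Genes named are the 12 largest rises and falls among DEGs whose samples do not overlap and whose higher group reaches a mean deposited FPKM of 5, up to 4 DEGs with the largest change and the most abundant member of each list, genes the study discusses for lung, and the sort markers. The 36 gene lists, the 12 marker lists and the genes named were chosen with earlier results of these data known. Other list members are named from their calls, after their values were seen. Alternatives were no rescaling, a pseudocount of 0.1, no filter, adjusted p alone, limma-voom, a replicate block, bone marrow in the fit and leaving out each sample. The exon classes, and the same under a mean FPKM of at least 5, were added after seeing the data. Promoters come from RefSeq (GRCm38.p6) and exon numbers from GENCODE M21.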

Additional observations from a re-analysis of the deposited data

How the results depend on the processing

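The counts of DEGs depended on the scale. Without rescaling 587 genes were higher in lung and 1476 in PB, and in the Piezo1 experiment 536 and 1893, 2429 in all. A pseudocount of 0.1 gave 1078 and 808, and 1142 and 1098 in the Piezo1 experiment, and limma-voom gave 1087 and 842. An adjusted p below 0.05 alone gave 5036 genes, 2539 higher in lung and 2497 in PB. Without a filter on low values 942 and 470 genes were called, and with bone marrow in the fit 962 and 463. Leaving out each sample in turn gave 931 to 956 genes higher in lung and 437 to 467 higher in PB, 1379 to 1417 in all, and in the Piezo1 experiment 922 to 973 and 576 to 685, 1498 to 1641 in all, where a tissue left with 1 sample is assumed to vary like the other.

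No pairing by equal replicate numbers was seen. The deviations of equal numbers from their group means correlated at −0.061, 0.035 and −0.086, and 1 of 3 lung samples correlated best with its own number. With 3 samples a tissue this cannot tell whether lung and PB cells came from the same mice. A replicate block gave 932 and 450 genes called, and 940 and 633 in the Piezo1 experiment.

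Of 149 genes named by rule and tested, each kept direction and call under the smaller pseudocount, limma-voom, the replicate block and bone marrow in the fit. Without rescaling Atg16l2, Atp6v0d1, Atp6v1e1, C5ar1, Cd63, Fpr1, H2-K1, Itga5, Jak2, Mrpl39, Ncf4 and Nfil3 lost their calls, Siglece gained one, and 13 uncalled genes changed sign. Itgam, Ptprc and S100a9 were among the 13. Without PB sample 2 Atp6v1e1 lost its call and Slfn4 gained one. The planned count tests with edgeR and DESeq2 were not run, because the deposited unit is FPKM. Depth limits genes below about 10 reads, such as Il6, for which a difference was not tested.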
